A study of Mus musculus with 8 samples.

Results

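Nuclear receptors are transcription factors that bind small ligands such as bile acids, fatty acids, retinoids, steroids and drugs, and many of them bind DNA as a pair with a retinoid X receptor. In the liver they set the genes of bile acid, lipid and drug metabolism, while the hepatocyte nuclear factors HNF4A and FOXA and the C/EBP factors keep the hepatocyte program on. A list of 37 mouse genes of both kinds was examined, chosen by name as every probe whose array annotation carries 1 of the 37 symbols. The array held 51 probes for 35 of the genes, and the other 2, Nr1h2 and Nr3c2, were not analysed here. A gene counted as measured where 1 of its probes had a detection p under 0.05 on at least 4 of the 8 arrays. This held for 26 genes (31 probes). Of all 25697 probes, 11100 passed the same filter, and keeping the brightest probe of each gene left 8540 features.

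The livers came from male C57BL/6J mice aged 21 weeks, 4 wild type controls and 4 TgC6hp55 transgenics, with 1 Illumina Mouse Ref-8 v2.0 array per liver. TgC6hp55 mice carry the human TNF receptor 1 coding sequence behind the Col6a1 promoter, which is active in mesenchymal cells, followed by a human growth hormone minigene. Controls were littermates or had shared cages since weaning. The paper focused its main work on its first founder line. Which line the 4 arrayed transgenics came from is not given in the sources used here. All levels below are log2 signals after background correction and quantile normalization, and each difference is TgC6hp55 minus wild type on that log2 scale with limma's moderated test, adjusted by Benjamini-Hochberg over the 8540 features.

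The mean deposited signal was 167 to 179 on the wild type arrays and 112 (replicate 4) to 224 (replicate 3) on the TgC6hp55 arrays. All 7 hepatocyte marker genes on the array were detected, with a summed signal of 62826 to 63836 in wild type and 63795 to 66340 in TgC6hp55 livers. The adipocyte markers Adipoq, Plin1 and Retn were detected on 0 arrays. All 4 measured Kupffer cell and macrophage markers had a higher mean in TgC6hp55 livers and an unadjusted p under 0.05. At an adjusted p under 0.05, 2 were higher, Adgre1 by 0.91 and Marco, detected on 1 wild type array, by at least 1.45-fold. The summed marker signal was 177 to 853 in wild type and 681 to 1026 in TgC6hp55 livers. All 6 measured endothelial markers had a higher mean and an unadjusted p under 0.05, with a median difference of 0.41. Of them, Pecam1 alone passed the adjusted threshold (0.47, adjusted p = 0.0133, limma), and the summed signal was 1547 to 2363 against 2399 to 2590. The sums of the mesenchymal markers (1344 to 2080 against 1833 to 2499) overlapped, and 0 of their 7 measured genes passed. T and NK cell marker sums were 18.5 to 28.1 in wild type and 31.0 to 62.2 in TgC6hp55 livers, and B cell sums 10.7 to 28.4 and 24.2 to 42.5, with 0 genes passing and Cd8a and Ms4a1 detected on 0 arrays. Neutrophil sums (14.8 to 49.9 against 27.6 to 61.4) and cholangiocyte sums (22.9 to 39.4 against 21.2 to 28.3) overlapped, with the bile duct keratin Krt19 detected on 0 arrays. In whole liver, a change in the number of cells of a type and a change in RNA per cell cannot be told apart.

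Of the 26 measured genes, 3 were higher in the TgC6hp55 livers and 0 lower at an adjusted p under 0.05. The 3 were Esr1, the estrogen receptor alpha, Nr1i3, the constitutive androstane receptor CAR, and Rxrg, the retinoid X receptor gamma. Over all features 11% were changed, 6.52% higher and 4.51% lower, so the share among the measured genes (11.5%) lay at the background. The median difference was 0.0198 over the 26 genes and -0.0082 over all features, and with median scaling -0.055 and -0.059. All 3 genes passed in each of the 19 alternative settings run, median scaling, the replicate block and the removal of each liver among them. RefSeq promoter windows (GRCm38.p6, plus strand, 250 bases before to 50 after a start site) of these genes are shown because they are the only members called as changed. They were searched on both strands for AGGTCA, the half-site bound by many nuclear receptors, TGTTTNC, the forkhead core, TTGCNNAA, a C/EBP site, and CAAAGTCCA, an HNF4A site. Capitals mark the matches.
Esr1, chr10:4611739-4612038: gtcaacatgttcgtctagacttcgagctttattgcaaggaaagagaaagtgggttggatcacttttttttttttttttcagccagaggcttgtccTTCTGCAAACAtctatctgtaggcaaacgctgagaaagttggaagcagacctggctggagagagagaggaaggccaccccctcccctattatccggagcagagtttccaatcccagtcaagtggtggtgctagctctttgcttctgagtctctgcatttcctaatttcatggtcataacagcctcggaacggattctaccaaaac
Nr1i3, chr1:171213720-171214019: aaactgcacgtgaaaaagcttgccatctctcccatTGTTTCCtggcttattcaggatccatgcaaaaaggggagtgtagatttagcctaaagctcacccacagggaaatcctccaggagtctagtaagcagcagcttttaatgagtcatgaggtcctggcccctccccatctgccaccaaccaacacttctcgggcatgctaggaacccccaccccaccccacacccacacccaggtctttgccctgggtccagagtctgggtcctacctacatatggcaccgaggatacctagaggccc
Rxrg, chr1:167618015-167618314: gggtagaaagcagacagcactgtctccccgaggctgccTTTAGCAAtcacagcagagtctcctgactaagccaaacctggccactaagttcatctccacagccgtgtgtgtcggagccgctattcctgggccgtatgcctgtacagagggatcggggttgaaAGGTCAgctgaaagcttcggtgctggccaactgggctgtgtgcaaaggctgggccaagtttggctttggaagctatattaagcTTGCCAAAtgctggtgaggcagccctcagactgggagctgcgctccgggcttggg

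The Esr1 window held a TTGCNNAA and a TGTTTNC match that overlapped, both on the minus strand. The window of Nr1i3 held 1 TGTTTNC match, and that of Rxrg held 1 AGGTCA and 2 TTGCNNAA matches. A second window of Esr1 (chr10:4709908-4710207) and of Rxrg (chr1:167598112-167598411) held 0 matches. Of all 32851 promoter windows in the table, 16.3% held AGGTCA, 20.5% TGTTTNC, 10.8% TTGCNNAA and 0.475% CAAAGTCCA. Among the 51 windows of 35 listed genes found there, the shares were 15.7%, 25.5%, 15.7% and 0%. These matches are strings of letters and were not tested as binding sites.

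Esr1 had the smallest p of the measured genes. Its log2 signal was 5.14, 5.17, 5.09 and 5.19 in wild type replicates 1 to 4 and 6.31, 6.19, 6.04 and 6.38 in TgC6hp55 replicates 1 to 4. The groups did not overlap, and the SD between livers was 0.045 in wild type and 0.148 in TgC6hp55 (n = 4 each). The difference was 1.08 (SE 0.10, 95% CI 0.86 to 1.30, adjusted p = 2.18e-05, limma), which is 2.12-fold. Across the alternative settings it stayed between 0.85 and 1.15. A constant of 16 was added to the signals before the log2 step, which shrinks the fold of a dim probe such as this one. The deposited signals, before any scaling, were 19, 20, 19 and 20 in wild type and 57, 61, 75 and 41 in TgC6hp55 livers, so the dimmest TgC6hp55 array still lay above all wild type arrays. A second Esr1 probe was detected on 0 arrays, so that the result rests on 1 probe.

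Nr1i3 encodes CAR, which switches on drug-metabolizing genes, Cyp2b10 among them. Its log2 signals were 8.26, 7.95, 7.79 and 8.14 in wild type and 9.19, 9.52, 9.08 and 8.85 in TgC6hp55 livers. Every TgC6hp55 liver was above every wild type liver, with TgC6hp55 replicate 2 the highest. The mean rose by 1.12 (SE 0.15, 95% CI 0.80 to 1.45, adjusted p = 4.80e-04, limma), which is 2.18-fold, and ranged from 1.0 to 1.23 over the alternative settings. Its deposited signals were 307, 244, 220 and 267 in wild type and 509, 749, 745 and 283 in TgC6hp55 livers. Before scaling, therefore, TgC6hp55 replicate 4, the dimmest array, overlapped the wild type range for this gene.

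Rxrg is a retinoid X receptor best known from muscle and brain. Its log2 signals were 4.87, 5.05, 5.19 and 5.56 in wild type and 6.34, 5.93, 6.09 and 5.87 in TgC6hp55 livers. The groups did not overlap, with wild type replicate 4 (5.56) nearest to TgC6hp55 replicate 4 (5.87). The difference was 0.89 (SE 0.15, 95% CI 0.56 to 1.23, adjusted p = 0.00303, limma), which is 1.86-fold, and its range over the alternative settings was 0.69 to 1.02. As for Esr1, the constant added before the log2 step shrinks this fold, so it is not comparable with that of the brighter Nr1i3. The deposited signals of 13, 17, 22 and 30 in wild type and 58, 48, 78 and 26 in TgC6hp55 livers were dim and overlapped through TgC6hp55 replicate 4. Mean marker sums of Kupffer, endothelial, T and NK, B, mesenchymal, neutrophil and hepatocyte genes were higher in TgC6hp55 livers, as these 3 genes were. Of these sums, the endothelial and the T and NK cell ones did not overlap between the groups. The part of cell types in the 3 differences was not tested. Without wild type replicate 1, the liver with the lowest Kupffer markers, the differences were 1.08 for Esr1, 1.20 for Nr1i3 and 0.79 for Rxrg. Leaving out 1 liver does not adjust for cell types, so these values do not test that part.

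**Figure D1:**
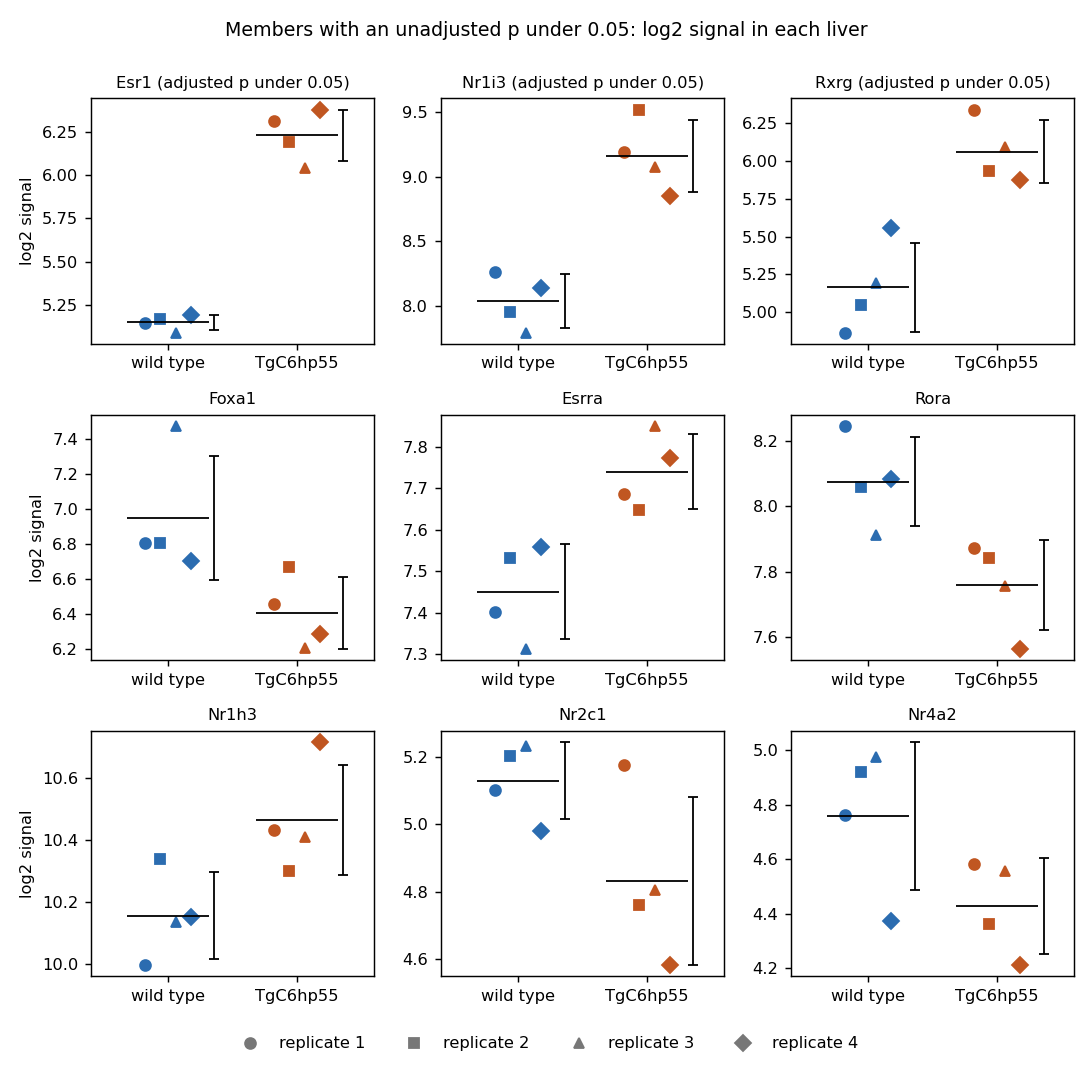
Log2 signal of the 9 measured genes with an unadjusted p under 0.05, 1 panel per gene with its own vertical scale, each symbol being 1 liver. Horizontal lines are group means and bars are 1 SD (n = 4). The group means of Esr1, Nr1i3 and Rxrg differ by 0.89 to 1.12, and in the lower panels the groups lie closer or overlap.

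A wider set of 9 of the 26 genes (34.6%) had an unadjusted p under 0.05, against 24.5% of all features. Beyond the 3 changed genes these were 2 with a higher and 4 with a lower mean in the TgC6hp55 livers, and none of the 6 passed the adjusted threshold. For 6 of the 26 genes (23.1%) the groups did not overlap, 4 higher and 2 lower, against 16.8% of all features. Foxa1, a pioneer factor that opens liver enhancers, had log2 signals of 6.81, 6.81, 7.47 and 6.70 in wild type and 6.46, 6.67, 6.21 and 6.29 in TgC6hp55 livers. The groups were apart by a narrow margin between wild type replicate 4 and TgC6hp55 replicate 2, and wild type replicate 3 was high. The difference was -0.54 (SE 0.17, adjusted p = 0.0641, limma), -0.37 without wild type replicate 3, and it passed only with a variance trend and robust estimation (adjusted p = 0.0444).

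Esrra, the estrogen-related receptor alpha of mitochondrial genes, had log2 signals of 7.40, 7.53, 7.31 and 7.56 in wild type and 7.69, 7.65, 7.85 and 7.77 in TgC6hp55 livers. These groups did not overlap, and the difference was 0.29 (SE 0.10, adjusted p = 0.0898, limma). Rora, a retinoid-related orphan receptor of the clock and of lipid genes, had 8.25, 8.06, 7.91 and 8.08 in wild type and 7.87, 7.84, 7.76 and 7.56 in TgC6hp55 livers, again with no overlap. Its difference was -0.32 (SE 0.11, adjusted p = 0.0929, limma). Neither gene passed in any alternative setting.

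Nr1h3, the oxysterol receptor LXR alpha, differed by 0.31 (SE 0.12, adjusted p = 0.126, limma), with wild type replicate 2 (10.34) above TgC6hp55 replicate 2 (10.30). Its second measured probe gave 0.09. Nr2c1, the testicular receptor 2, differed by -0.30 (SE 0.13, adjusted p = 0.181, limma), with TgC6hp55 replicate 1 (5.17) inside the wild type range of 4.98 to 5.23. Without that liver the difference was -0.41 and the adjusted p was 0.0487, from deposited signals of 6 to 23 that lay near background. Nr4a2, an orphan receptor that handling and stress can induce, was near the detection limit, found on 3 wild type arrays and 1 TgC6hp55 array. Its deposited signals were 11, 14, 16 and 3 in wild type and 7, 3, 10 and -3 in TgC6hp55 livers, so the groups overlapped. Only a bound on the difference of the means can be given, 1.14-fold lower, and as the gene did not pass it sets no minimum decrease. The fitted difference of -0.33 (SE 0.14, adjusted p = 0.182, limma) is therefore no measured level, nor is the -0.46 (adjusted p = 0.0470) without wild type replicate 4.

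**Figure D2:**
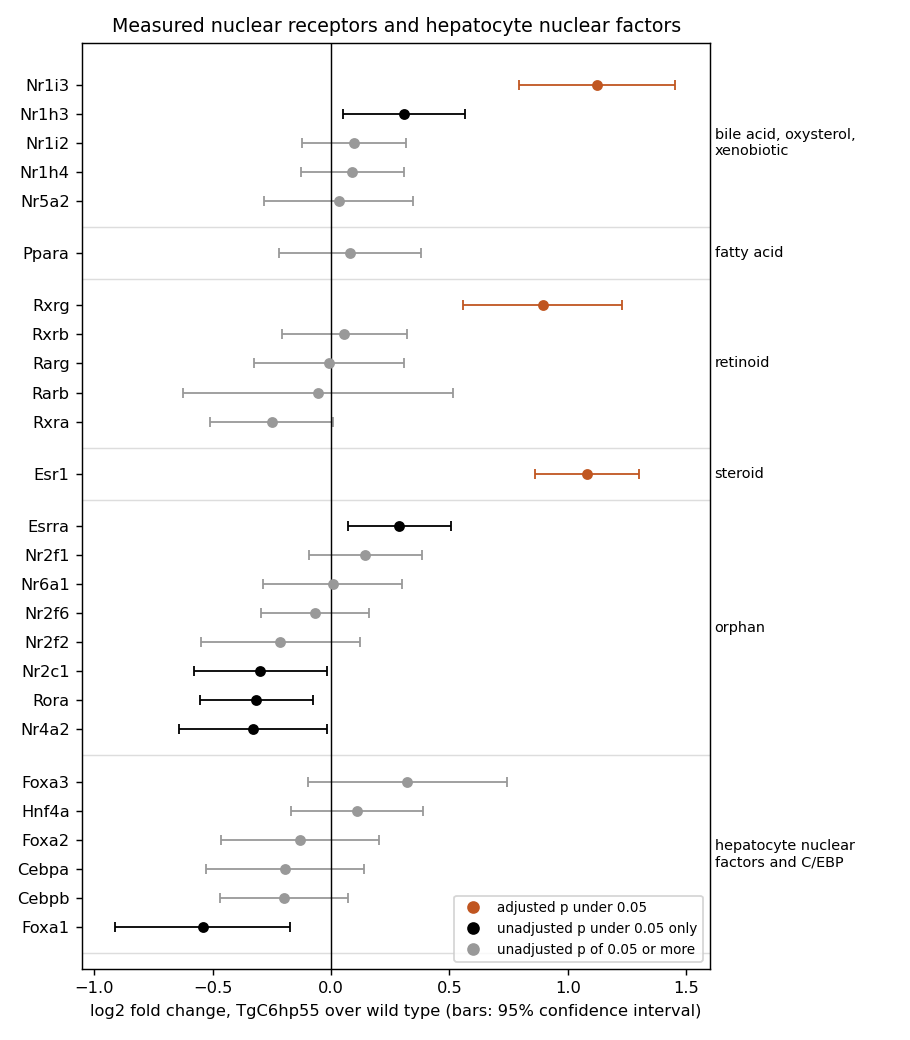
Log2 fold change of TgC6hp55 over wild type for the 26 measured genes, ordered by class, with 95% confidence intervals from limma (n = 4 per group). Orange points passed at an adjusted p under 0.05 (Nr1i3, Rxrg, Esr1), black points had only an unadjusted p under 0.05, and the remaining 17 lie between -0.25 and 0.32. Nr4a2 is drawn at its fitted value, which is no measured level.

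Among the bile acid, oxysterol and drug receptors, the other measured genes were close to 0. Nr1h4, the bile acid receptor FXR, differed by 0.09 (95% CI -0.13 to 0.31). Nr1i2, the drug receptor PXR and nearest relative of CAR, differed by 0.10 (95% CI -0.12 to 0.32). Nr5a2, the liver receptor homolog LRH-1, differed by 0.03 (95% CI -0.28 to 0.35), and its second measured probe by -0.17. The fatty acid receptor Ppara differed by 0.08 (95% CI -0.22 to 0.38) on a probe near background, with deposited signals of 9 to 28 on the 8 arrays. The intervals of Nr1h4, Nr1i2 and Nr5a2 do not hold a change of the size seen for Nr1i3.

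The retinoid receptors other than Rxrg did not pass. Rxra, the main partner of the liver receptors, differed by -0.25 (95% CI -0.51 to 0.01, adjusted p = 0.220, limma). Rxrb differed by 0.06 and its second, dimmer measured probe by -0.11. On the brighter probe 3 of the 4 TgC6hp55 livers lay between 8.45 and 8.46 with replicate 4 at 8.93. Rarg, detected on 3 arrays of each group, differed by -0.01. Rarb, a retinoic acid receptor that retinoic acid itself induces, had log2 signals of 5.37, 5.17, 6.60 and 5.31 in wild type and 5.67, 5.31, 5.60 and 5.64 in TgC6hp55 livers. Wild type replicate 3 stood above all other livers, and the difference of -0.06 became 0.27 (adjusted p = 0.211, limma) without it. A second measured Rarb probe was also highest in that liver, at 5.60 against 4.70 to 5.08 in the other wild type livers, and differed by -0.40 (SE 0.18, adjusted p = 0.201, limma). Of the 2 measured targets of the retinoic acid receptors (median -0.13), 0 passed. Cyp26a1, which degrades retinoic acid, was 7.07 in wild type replicate 3 and 4.37 to 5.06 in the other wild type livers. The other, Tgm2, a transglutaminase, differed by 0.30 (adjusted p = 0.127, limma). Lrat, which stores retinol in stellate cells, was 5.84 in wild type replicate 3 against 4.59 to 5.01. It is 1 of 8 listed stellate and mesenchymal markers and was picked after its values were seen. Whether these genes are linked in that liver was not tested.

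Of the steroid, vitamin D and thyroid hormone receptors, Esr1 alone was measured. The glucocorticoid receptor Nr3c1 was detected on 1 array, Vdr on 1 array over 3 probes, and Thra and Thrb on 0 arrays. Among the other receptors, Rara was detected on 2 arrays and Nr0b2 (SHP), Ppard, Nr2c2 and Nr4a1 on 0 arrays. The deposited signals of these 9 genes ran from -8 to 14. With no filter on dim probes their adjusted p ran from 0.644 to 0.993 (limma), so none passed. Probes this close to background set no level for these genes.

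Of 8 measured orphan receptors, 0 passed. Beside Esrra, Rora, Nr2c1 and Nr4a2, the COUP receptors Nr2f1 (0.14, with deposited signals of 6 to 18), Nr2f2 (-0.21) and Nr2f6 (-0.07) and the germ cell nuclear factor Nr6a1 (0.01) had an unadjusted p over 0.05. The 6 hepatocyte nuclear factors and C/EBP genes were all measured and 0 passed. Hnf4a, the central hepatocyte receptor, differed by 0.11 (95% CI -0.17 to 0.39, adjusted p = 0.657, limma). Foxa2 differed by -0.13 and Foxa3 by 0.32 (95% CI -0.10 to 0.74), with Foxa3 in TgC6hp55 replicates ranging from 10.62 to 11.61. Cebpa (-0.19) and Cebpb (-0.20), bZIP factors of metabolic and acute phase genes, did not pass and their groups overlapped. For Cebpb the overlap came from TgC6hp55 replicate 3 (10.17). The other TgC6hp55 livers were at 9.76 to 9.77, against 9.89 to 10.25 in wild type livers.

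**Figure D3:**
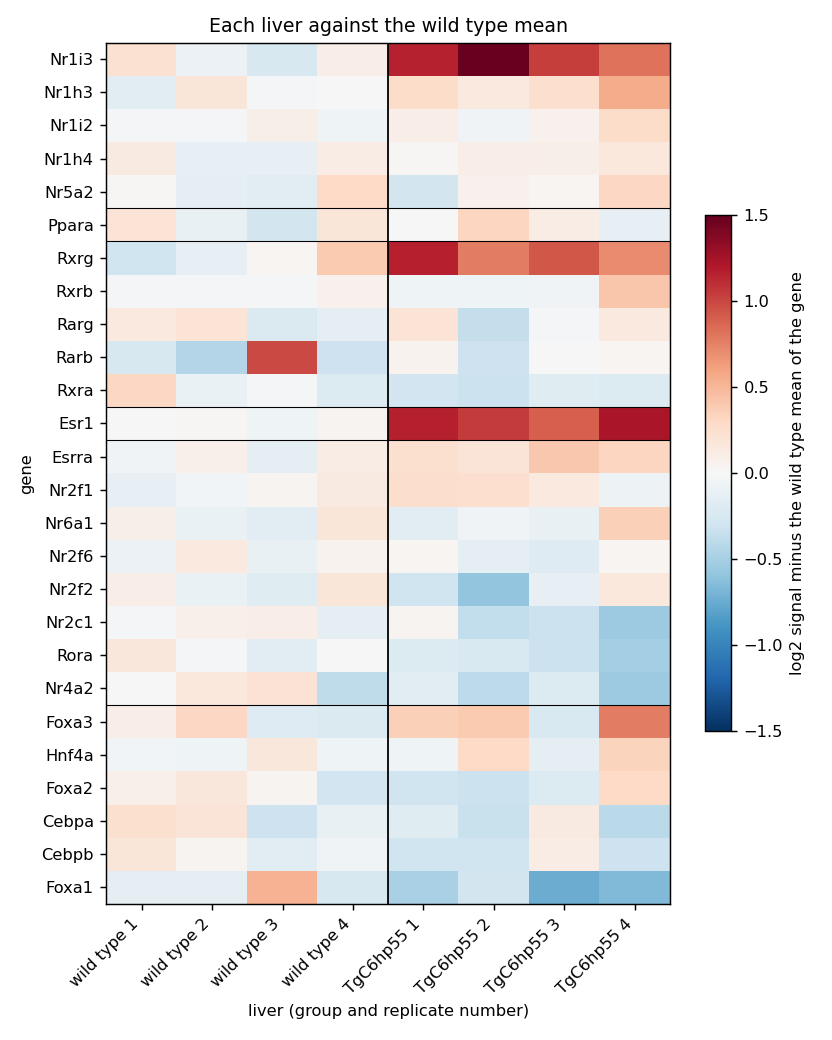
Log2 signal of each liver minus the wild type mean of the gene, for the 26 measured genes (rows, ordered by class as divided by thin lines) in the 8 livers (columns). Nr1i3, Rxrg and Esr1 are high in all 4 TgC6hp55 livers, and Rarb and Foxa1 stand out in wild type replicate 3.

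The spread between livers of a group was similar for these genes and for all features. The median SD was 0.165 in wild type and 0.204 in TgC6hp55 livers for the 26 genes, against 0.148 and 0.178 over all features. TgC6hp55 replicate 4 held the highest value of its group for 11 of the 26 genes and the lowest for 9, and wild type replicate 3 the lowest for 13.

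Genes listed as targets of the receptors were counted, beside the 11% of all features that changed. The lists were chosen with earlier results of these data known, so the counts are descriptive and test nothing. Of 21 measured CAR and PXR targets, 7 were higher and 0 lower, with a median of 0.35 (0.32 with Gadd45b, detected on 1 wild type array, at its bound). Cyp2b9, which had the largest increase of them, was 4.65, 4.37, 4.88 and 4.94 in wild type livers and 12.22, 12.51, 12.64 and 12.34 in TgC6hp55 livers. That is a rise of 7.72 (SE 0.14, adjusted p = 8.06e-12, limma) in a gene detected on 3 wild type arrays. Cyp2b10, the usual readout of CAR, was 4.59, 4.96, 5.60 and 5.42 in wild type and 8.30, 8.62, 8.94 and 8.88 in TgC6hp55 livers, a rise of 3.54. Gsta2, a glutathione transferase, rose by 1.21 and passed in 13 of the 19 alternatives, not without wild type replicate 1, wild type replicate 2 or TgC6hp55 replicate 3. Slco1a4, an anion transporter, rose by 0.82 and passed in 17. Cyp2b genes are near-identical, and sharing of signal between their probes was not tested. Whether CAR or PXR drives any of these rises, that of Cyp2b9 included, was not tested either.

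Of 24 measured PPARA targets, 10 were higher and 0 lower, with a median of 0.38. Acot3, an acyl-CoA thioesterase, rose by 5.56 (SE 0.17) from 4.87 to 5.42 in wild type to 10.16 to 10.93 in TgC6hp55 livers. Cyp4a14, a fatty acid hydroxylase, ranged from 6.97 to 9.94 in wild type and from 11.92 to 12.16 in TgC6hp55 livers, a rise of 3.42. Acot4 (2.47) and Cyp4a31 (1.69) rose too. The Acot and Cyp4a genes are also families of close copies, so single members are uncertain.

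Of 14 measured targets of FXR, SHP and LRH-1, 3 were higher and 1 lower, with a median of 0.0088. Cyp7a1, the rate-limiting enzyme of bile acid synthesis, was 7.04, 9.61, 8.02 and 8.86 in wild type and 9.63, 10.86, 10.56 and 10.07 in TgC6hp55 livers. It rose by 1.89 (SE 0.45, adjusted p = 0.0193, limma), with wild type replicate 2 close below TgC6hp55 replicate 1, and passed in 14 of the 19 alternatives, not without TgC6hp55 replicate 2 or 3. Slc51b, a bile acid exporter, rose by 0.87 and the oxysterol enzyme Cyp27a1 fell by 0.72. Klb, the coreceptor of FGF signals, rose by 0.39 but passed in only 8 of the 19 alternatives, and among the 8 fits that leave out a liver only without wild type replicate 4. Of 11 LXR targets 2 were higher and 0 lower (median 0.27), Cyp7a1 again and the sterol transporter Abcg5, which rose by 0.51 and passed in 8 of the 19 alternatives, among the fits that leave out a liver only without wild type replicate 1 or TgC6hp55 replicate 4.

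Of 12 measured glucocorticoid receptor targets, 4 were higher and 2 lower, with a median of 0.34. The metallothionein Mt1 rose by 4.16, and Mt2, detected on 1 wild type array, was at least 2.70-fold higher. Fkbp5, a chaperone partner of the receptor, was 5.64, 5.64, 5.64 and 5.67 in wild type and 7.23, 7.16, 6.92 and 7.54 in TgC6hp55 livers, a rise of 1.57. Klf9 fell by 0.77 and is counted as a thyroid hormone receptor target as well. The receptor's own probe was at background. Of 6 thyroid hormone receptor targets, 1 was higher (Gpd2, a rise of 0.67) and 1 lower, with a median of 0.0065. Gpd2, the mitochondrial glycerol phosphate dehydrogenase, passed in 13 of the 19 alternatives, not without wild type replicate 2 or TgC6hp55 replicate 1.

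Of 20 measured genes that need HNF4A, FOXA or C/EBP factors, 2 were higher and 1 lower, with a median of 0.0183. Median scaling turned the sign of 4 list medians, to -0.0256 for the coregulators (0.0097 in the main setting), -0.143 for the FXR, SHP and LRH-1 targets, -0.088 for these genes and -0.082 for the thyroid hormone receptor targets, where the median of all features was -0.059. Apoa4, an apolipoprotein, rose by 1.13, the clotting factor F7 rose by 0.48 and Tdo2, which degrades tryptophan, fell by 0.69. Other transcription factors of hepatocytes numbered 16, of which 1 was higher and 3 lower (median 0.05). Cux2, a homeobox factor detected in no wild type liver, was 7.47 to 7.98 in TgC6hp55 livers and at least 8.78-fold higher. Bcl6, a repressor, had 10.06, 8.58, 7.15 and 9.72 in wild type and 7.14, 7.25, 6.94 and 6.49 in TgC6hp55 livers. It fell by 1.93 (SE 0.50, adjusted p = 0.0281, limma) with wild type replicate 3 at the level of the TgC6hp55 group, and passed in 9 of the 19 alternatives, among the fits that leave out a liver only without wild type replicate 3 or TgC6hp55 replicate 2. Klf9 and Cux1, which fell by 0.60 and passed in 14 of the 19, not without wild type replicate 2, were the other lower genes.

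Of 16 other nuclear receptors outside the list of 37, 4 were measured, 1 was higher and 0 lower (median -0.0202). Pparg, the adipogenic fatty acid receptor, was 6.68, 6.75, 7.25 and 6.90 in wild type and 7.74, 7.35, 7.33 and 7.61 in TgC6hp55 livers. It rose by 0.61 (SE 0.14, adjusted p = 0.0181, limma), with wild type replicate 3 just below TgC6hp55 replicate 3, and passed in 12 of the 19 alternatives, not without wild type replicate 1, wild type replicate 2 or TgC6hp55 replicate 1. Of 14 measured coregulators, 0 passed and 1 had an unadjusted p under 0.05, the coactivator Ppargc1a (0.34, adjusted p = 0.107, limma), followed by the methyltransferase Carm1 (-0.23). Of 6 measured immediate early genes (median 0.09) 0 passed and 1 had an unadjusted p under 0.05, Ier3 (0.24, adjusted p = 0.157, limma), followed by the phosphatase Dusp1 (0.40).

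**Figure D4:**
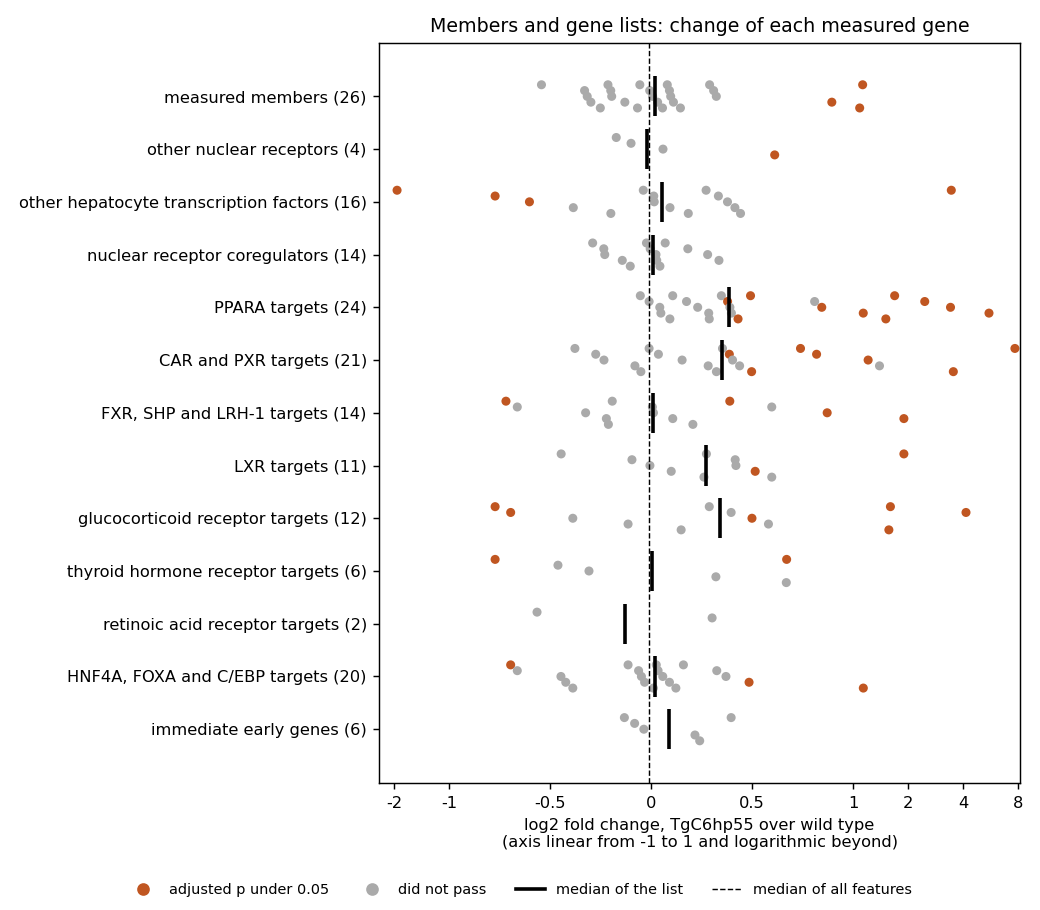
Log2 fold change of each measured gene (points) for the 26 members and the 12 gene lists, with the number of genes in brackets. The horizontal axis is linear from -1 to 1 and logarithmic beyond, black bars are list medians and the dashed line is the median of all features. The largest medians are those of the PPARA (0.38), CAR and PXR (0.35), glucocorticoid receptor (0.34) and LXR targets (0.27). Genes for which only a bound can be given are drawn at their fitted values, which are no bounds. Cux2, Mt2, Gadd45b and Nr4a2 are among them. With Gadd45b at its bound the CAR and PXR median is 0.32.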

How the data were processed

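Liver RNA of 4 wild type and 4 TgC6hp55 mice was hybridised to 1 array each. The authors processed the arrays in GenomeStudio 2011.1 and deposited, as whole numbers, intensities before normalization (down to -16, so a background had been subtracted) and intensities after cubic spline normalization, with a detection p-value per probe and array. The replicate number in each title linked a column with its sample. In R 4.3.3 with limma 3.58.1, the first intensities went through limma's neqc function, which takes its normexp background from the detection p-values, adds an offset (16 here) and quantile normalizes log2 values. Probes detected on at least 4 of 8 arrays were kept, the brightest probe stood for a gene, and lmFit and eBayes compared the groups. Each array is of a separate animal. A bound ("at least") raises undetected signals to the lowest detected signal of their array. Genes were named by rule: every member, and up to 4 changed genes of each list, or up to 2 with the smallest p. Lrat was named outside this rule, after its values were seen. The members and lists were chosen with earlier results of these data known. The alternatives were other background correction, scaling, filters, probe choice, variance models, array weights, a replicate block, a plain unpaired test, SAM (fold over 1.7, FDR under 1%, 70 permutations) and each liver left out, with the arrays' normalization kept. The number of arrays limits precision.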

Additional observations from a re-analysis of the deposited data

Results flagged for a closer look

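In 7 of 52 sets of 4 livers (26 genes in 2 groups), 1 liver lay far from the other 3 of its group by Dixon's 95% criterion, which chance alone meets in about 1 of 20. Wild type replicate 3 was the liver in 3 of them, with log2 signals of 6.60 for Rarb (others 5.17 to 5.37), 7.47 for Foxa1 (others 6.70 to 6.81) and 10.40 for Hnf4a (others 10.16 to 10.19). Wild type replicate 4 had 8.58 for Rxrb (others 8.49 to 8.50). Among the TgC6hp55 livers, replicate 4 had 8.93 for Rxrb (others 8.45 to 8.46), replicate 3 had 10.17 for Cebpb (others 9.76 to 9.77) and replicate 2 had 5.31 for Rarb (others 5.60 to 5.67). None of these genes passed the test. Without TgC6hp55 replicate 4 the Rxrb difference was -0.06, and without TgC6hp55 replicate 3 that of Cebpb was -0.30.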

How the results depend on the processing

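Esr1, Nr1i3 and Rxrg were called higher under all 19 alternatives. The count of lower members was 0 and became 1 with a variance trend and robust estimation (Foxa1), and 0 to 1 over the fits that leave out a liver, 1 without wild type replicate 4 (Nr4a2) or TgC6hp55 replicate 1 (Nr2c1). The 942 changed features became 293 with median scaling, 585 with the plain unpaired test and 360 with SAM (run on the authors' cubic spline values, with its fold and FDR limits), and 618 to 918 when 1 liver was left out, fewest without wild type replicate 2. With the FDR limit alone SAM called 669. With median scaling the median of all features was -0.059, and the changed genes of the lists were 0 for other nuclear receptors, 6 for PPARA, 4 for CAR and PXR, 2 for FXR, SHP and LRH-1, and 1 each for LXR, thyroid hormone receptor and HNF4A, FOXA and C/EBP targets. The plain unpaired test called 0 other nuclear receptors, 2 other hepatocyte factors, 4 CAR and PXR, 2 FXR, 0 LXR and 1 thyroid hormone receptor targets. SAM called 0, 1 (other hepatocyte factors), 2 (FXR), 1 (LXR), 3 (glucocorticoid receptor), 0 (thyroid hormone receptor) and 1 (HNF4A, FOXA and C/EBP). With no filter on dim probes the counts were 0, 2, 2 (FXR), 0 (LXR) and 1 (thyroid hormone receptor). Leaving out livers gave 0 to 1 other nuclear receptors (0 without TgC6hp55 replicate 1, wild type replicate 1 or wild type replicate 2), 2 to 5 other hepatocyte factors and 4 to 9 CAR and PXR targets (fewest without wild type replicate 2), 2 to 4 FXR (TgC6hp55 replicate 2), 0 to 2 LXR (0 without TgC6hp55 replicate 3), 1 to 3 thyroid hormone receptor, 3 to 5 HNF4A, FOXA and C/EBP (5 without TgC6hp55 replicate 3) and 0 to 1 coregulators (1 without TgC6hp55 replicate 3), retinoic acid receptor targets (1 without wild type replicate 3) and immediate early genes (1 without wild type replicate 2).

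Small differences that did not pass changed sign. Median scaling gave -0.057 for Nr1h4, -0.0401 for Nr5a2, -0.056 for Rxrb, -0.055 for Nr6a1 and -0.029 for Hnf4a, and array weights gave -0.017 for Nr5a2, -0.0109 for Rxrb and -0.049 for Nr6a1. Over the fits that leave out a liver, the difference ranged from -0.013 to 0.149 for Ppara, -0.062 to 0.136 for Nr5a2, -0.062 to 0.0974 for Rxrb, -0.111 to 0.0669 for Nr6a1, -0.203 to 0.274 for Rarb, -0.0794 to 0.109 for Rarg and -0.875 to 0.0256 for Cyp26a1. The cause was not tested. Replicate numbers were not taken to pair the livers, since nothing in the sources says that a number is shared. Deviations of same-numbered livers correlated at 0.159, 0.123, 0.011 and 0.114 across features, against at most 0.010, 0.027, 0.076 and 0.012 with another number, so 3 of the 4 numbers correlated best with themselves. A replicate block gave 923 changed features and the same 3 members. Signal over background limits 9 of the 35 genes with a probe, which were not measured. Among the measured genes Rarg, Nr4a2, Nr2f1, Nr2c1, Nr2f2, Ppara and Rxrg were dim. Esr1 was also dim in the wild type livers, with deposited signals of 19 to 20.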
